A study of Mus musculus with 17 samples.

Results

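The genes described here are the interleukins and the chains of their receptors, all genes of the array whose symbol begins with Il and a digit. Of 19752 genes with a probe set of their own, 76 met this rule through 80 probe sets, and for the 3 genes with several the brightest probe set was used. The study hybridised RNA from medullary thymic epithelial cells of mice, sorted by flow cytometry, to 17 whole-transcript arrays, 1 per sample. All mice were C57BL/6 and carried the Adig transgene, in which Aire drives an Igrp-GFP fusion, so that GFP marks cells in which the Aire locus is active. Each sample was CD45- Ly51- MHCIIhi thymic medulla, labelled as of mixed sex, and the knockout cells carried the same reporter. At 5 weeks of age (adults) there were 3 samples of wild-type (WT) GFP- cells, 3 of WT GFP+ cells and 3 of GFP+ cells that lacked Aire (KO). The perinatal groups held 2 samples of WT GFP- cells, 3 of WT GFP+ cells and 3 of KO GFP+ cells, from mice aged 3 days by the sample labels or 0 to 3 days by the series text. KO cells were sorted as GFP+ only, and which stretch of Aire was deleted is not given in the sources used here. Whether each replicate was a separate animal is not stated, so p-values here reflect how far these samples vary among themselves, and that variation may be only technical.

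Interleukins are secreted signals, and most of them bind receptors built from a private chain and a chain shared with relatives. The common gamma chain joins the receptors of IL-2, IL-4, IL-7, IL-9, IL-15 and IL-21, gp130 joins those of the IL-6 family, and the IL-1 family signals through paired immunoglobulin-like receptors. In the thymus, epithelial IL-7 and IL-15 support developing lymphocytes, and Aire is the regulator that lets medullary epithelial cells transcribe many genes of other tissues at low level. Interleukin genes therefore belong to this epithelium both as products of its own and as genes normally used by immune cells.

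All levels given are linear intensities of a probe set. An intensity is called near background where it fell under the 40th percentile of its array, and these percentiles ranged from 96.2 to 112. By this measure 57 members were above it on at least 2 arrays and were tested. The other 19 were near background. Array medians lay between 144.5 and 157.1. Arrays of the same group correlated at 0.970 to 0.995 over the tested genes and arrays of different groups at 0.757 to 0.960. Aire read 4072 to 6196 on every GFP+ array and 270.0 to 930.1 on the GFP- arrays, and its level does not check the genotype. Of 14 medullary markers, 14 were above the percentile in every group except perinate GFP- cells, where Cd86 was below it. The medullary sum was 38226 to 39129 in perinate GFP- cells against 47666 to 54046 elsewhere, and the sum of 9 cortical markers was 17587 to 18540 there against 9108 to 13779 elsewhere. Perinate KO arrays 2 and 3 stood apart from the other 15 in sex-linked transcripts, with Uty at 19.2 and 16.1 against 169 to 366. Xist read 5203 and 5167 there against 2104 to 4509. The label of mixed sex is thus not borne out on these arrays. In perinates a difference of sex cannot be told apart from that of genotype where calls rest on them. For members described with their values on the arrays, calls that ended without these arrays are marked. Il13ra2, Il27, Il34 and Il1rap, called in perinate KO cells, were not looked at singly in this way, and Il13ra2 lies on the X chromosome. In RNA of bulk samples, fewer cells of a type and less RNA per cell cannot be told apart.

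Il9, Il5 and Il3 fell to near background in KO cells, while Il4 and Il13 were not called lower. Their promoters are shown because Il4, Il13, Il5 and Il3 lie on the same chromosome in this order, with 0, 1 and 7 annotated genes between neighbours, and yet differed in their response. Each line is the 250 bases before the annotated start in RefSeq (GRCm38.p6), 5' to 3' on the gene's strand. Capitals mark matches, on either strand, to TATANA, a form of the TATA box, to AGATAA, which GATA factors bind, or to TGANTCA, bound by AP-1. Overlapping matches run together. The Il4 window lies at chr11:53618666-53618915 (minus strand), that of Il13 at chr11:53634703-53634952 (minus), that of Il5 at chr11:53720544-53720793 (plus), that of Il3 at chr11:54267280-54267529 (minus) and that of Il9 at chr13:56482258-56482507 (minus). Il4 has 2 listed starts, of which the more upstream was used.
Il4: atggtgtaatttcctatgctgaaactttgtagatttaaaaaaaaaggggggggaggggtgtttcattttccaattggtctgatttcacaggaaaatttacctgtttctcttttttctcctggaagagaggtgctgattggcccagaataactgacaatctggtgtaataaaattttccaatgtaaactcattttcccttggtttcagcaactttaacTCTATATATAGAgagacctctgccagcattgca
Il13: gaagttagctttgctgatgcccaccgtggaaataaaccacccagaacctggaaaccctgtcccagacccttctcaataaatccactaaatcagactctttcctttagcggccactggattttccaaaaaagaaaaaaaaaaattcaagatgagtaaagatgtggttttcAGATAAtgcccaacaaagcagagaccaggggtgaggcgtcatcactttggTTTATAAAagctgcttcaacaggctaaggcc
Il5: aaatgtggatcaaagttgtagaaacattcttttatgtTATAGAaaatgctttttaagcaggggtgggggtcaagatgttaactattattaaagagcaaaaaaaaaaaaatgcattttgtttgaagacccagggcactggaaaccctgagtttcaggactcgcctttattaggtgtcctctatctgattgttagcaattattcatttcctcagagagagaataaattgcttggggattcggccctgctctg
Il3: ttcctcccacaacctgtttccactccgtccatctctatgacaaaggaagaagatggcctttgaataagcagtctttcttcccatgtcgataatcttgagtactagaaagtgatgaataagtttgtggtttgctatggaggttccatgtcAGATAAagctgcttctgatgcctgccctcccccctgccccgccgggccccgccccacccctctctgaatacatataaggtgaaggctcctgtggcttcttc
Il9: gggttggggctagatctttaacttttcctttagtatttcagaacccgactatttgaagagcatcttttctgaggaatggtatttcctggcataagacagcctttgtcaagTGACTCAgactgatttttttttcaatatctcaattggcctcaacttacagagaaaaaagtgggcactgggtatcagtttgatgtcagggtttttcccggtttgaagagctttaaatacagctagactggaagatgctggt

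Within these windows Il4 held 4 overlapping TATANA matches, the nearest starting 27 bases before the start, and Il13 held 2, the nearest at 29 bases. Il5 held 1, at 213 bases, and Il3 and Il9 held 0. Il13 and Il3 each held 1 AGATAA match, 81 and 101 bases before the start. Il9 held the only TGANTCA match of the 5, at 140 bases. GGAAA, a core of NFAT and NF-kB sites that is not capitalised, occurred 5 times in Il4, 4 in Il13, 2 in Il5, 1 in Il3 and 3 in Il9. Over all 32851 windows of the same length, 22.6% held TATANA, 9.99% AGATAA, 6.75% TGANTCA and 55.6% GGAAA. Of the 59 members with a listed promoter, 28.8% held TATANA, 15.3% AGATAA, 20.3% TGANTCA and 67.8% GGAAA. Each member gave 1 window, at its most upstream start, while the 32851 windows include every listed start of a gene, so the units differ. These are matches of letters, and whether a factor binds there was not measured. The ratio of observed to expected CpG had a median of 0.13 in the 9 promoters of members called higher in KO cells at either age, 0.28 in the 17 of members called lower, 0.29 in the 15 of members not called and 0.22 in the 18 of members near background. It was 0.37 over all 32851 windows.

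Between genotypes more interleukin members were called lower than higher in KO cells. A gene was called at an adjusted p under 0.05 in limma over all 13842 tested genes. In adults 27 of 57 members were called between KO and WT GFP+ cells (47.4%, against 19.9% of all genes), 9 of them upward (9.06% of all genes) and 18 downward (10.8%). In perinates 25 were called (43.9%, against 26.5%), 7 higher (13.5%) and 18 lower (13%). The median member differed by 0.03 on the log2 scale in adults and by -0.09 in perinates, against 0.06 and 0.09 over all genes. Of the members lower in KO cells, 11 in adults and 13 in perinates were near background on all 3 KO arrays. Il1a, Il24, Il31ra and Il5 reached the percentile on WT GFP+ arrays alone. Il3 and Il12b reached it elsewhere only on a single adult GFP- array (124 each), short of the 2 arrays needed. All of these were tested only because of the group in which they were high, so their lower calls are no support for the count. With the filter at the 60th percentile 42 members were tested, and 8 were higher and 12 lower in adults and 6 higher and 11 lower in perinates. For members near background on every array of a group, a fold is given as a lower bound, in which the dim group is set at the 40th percentile of its arrays or at its own value where that is higher. The fitted log2 difference of such a member uses values below the percentile and is not a bound.

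Between sorts the calls went both ways in adults and mostly toward GFP+ cells in perinates. In WT adults 37 members were called (64.9%, against 44.9% of all genes), 21 higher in GFP+ cells (24.7%) and 16 lower (20.1%). In WT perinates 34 were called (59.6%, against 43.5%), 29 higher (23%) and 5 lower (20.5%). Il1a, Il24, Il31ra, Il5, Il3 and Il12b are among the higher members at both ages. They were tested only because of the WT GFP+ cells, so their higher calls are no support for these counts. Il17rd, among the lower members in perinates, was tested only because of the perinate GFP- cells and is no support either. The median member was higher in GFP+ cells by 0.12 in adults and 0.51 in perinates, against 0.02 and 0.00 over all genes. The sort difference itself was larger in perinates than in adults for 19 members (10.7% of all genes) and smaller for 2 (9.28%), together 36.8% of the members against 20% of all genes. The comparisons of sort and of genotype share the WT GFP+ arrays of an age.

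Perinates were below adults for most members that differed with age. In WT GFP- cells 34 members were called (59.6%, against 46.4%), 6 higher in perinates (22.2%) and 28 lower (24.2%). Il17rd and Il17d, among the 6, were tested only because of the perinate GFP- cells, so their calls are no support for that count. Il17d reached the percentile elsewhere only on perinate KO array 1 (98.3). In WT GFP+ cells 23 were called (40.4%, against 22.2%), 7 higher (8.52%) and 16 lower (13.6%), and without adult WT GFP+ array 7 the number was 15. Il17d, among the 7, was near background on every array of both groups and is no support there either. In KO GFP+ cells 21 were called (36.8%, against 26%), 3 higher (13.4%) and 18 lower (12.7%). With perinate KO array 1 alone, taken to vary like the other groups, 12 members were called between genotypes in perinates, 1 of them higher, and 11 between ages in KO cells.

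**Figure D1:**
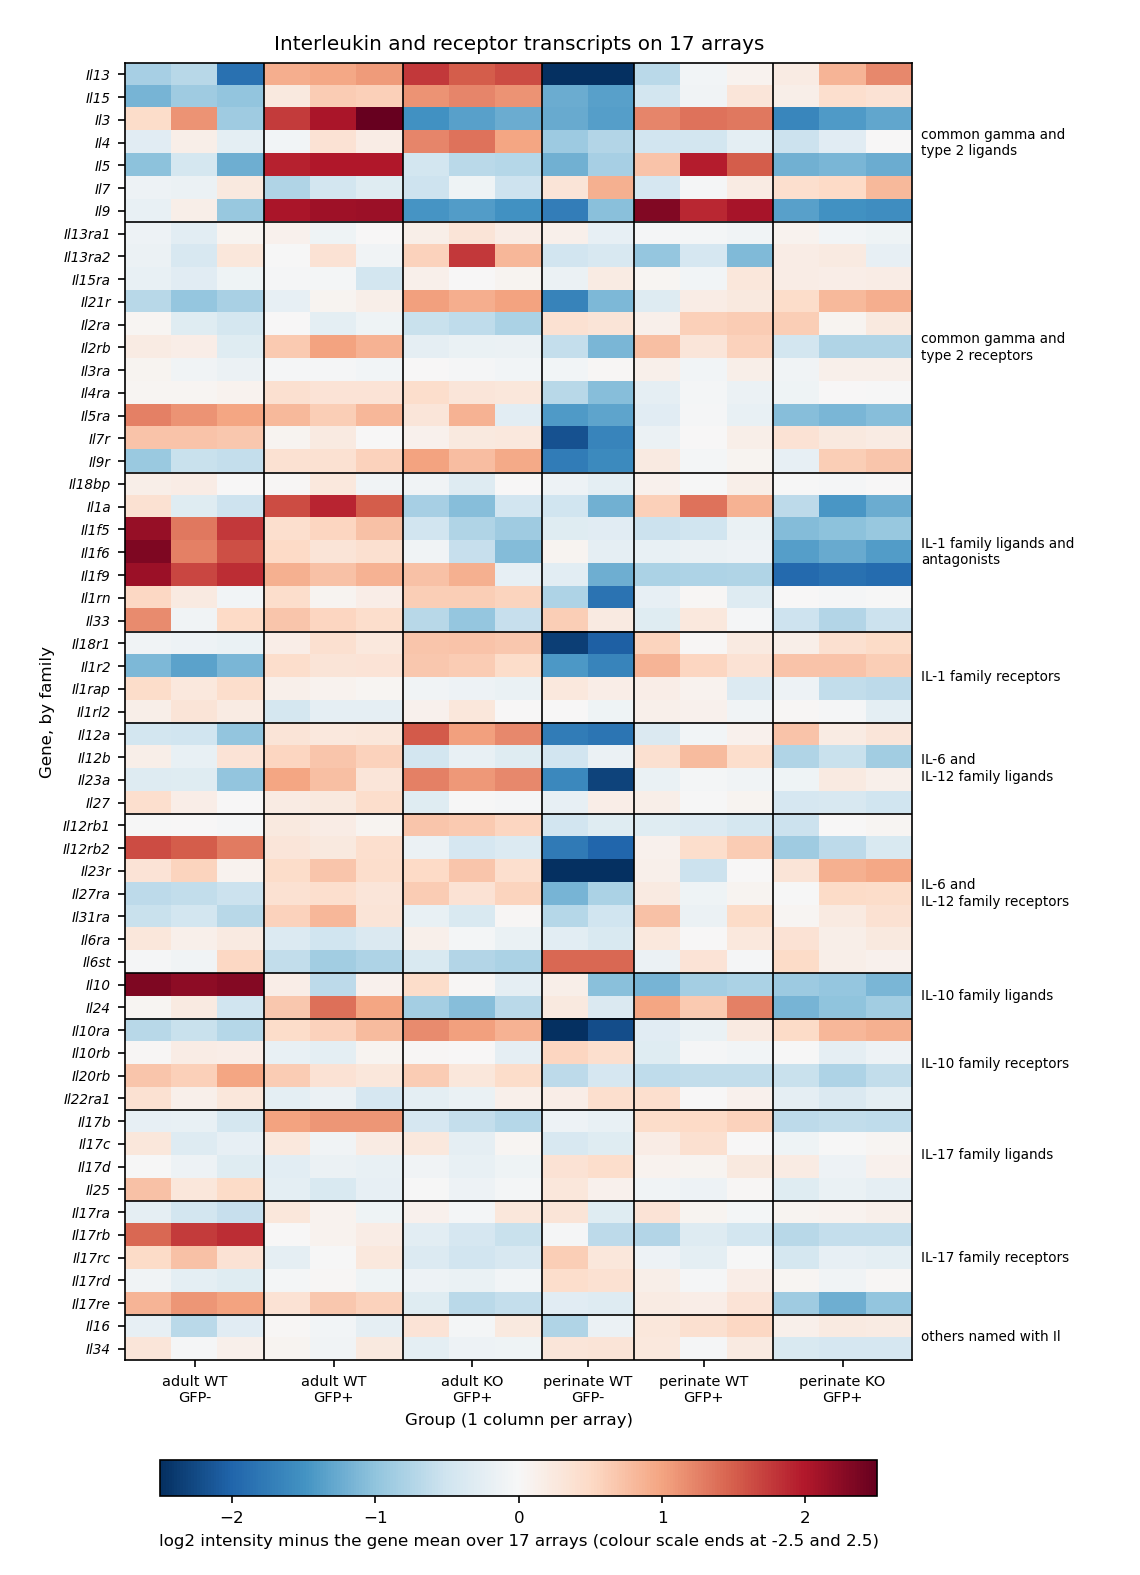
Log2 intensity of the 57 tested members on the 17 arrays (columns, by group), as the difference from the gene's mean over all arrays (colour, log2 units, ends at -2.5 and 2.5), with rows ordered by family. Il9, Il5, Il3 and Il1a are red in both WT GFP+ groups and blue in both KO groups, and many receptor rows are blue in the 2 perinate GFP- columns.

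**Figure D2:**
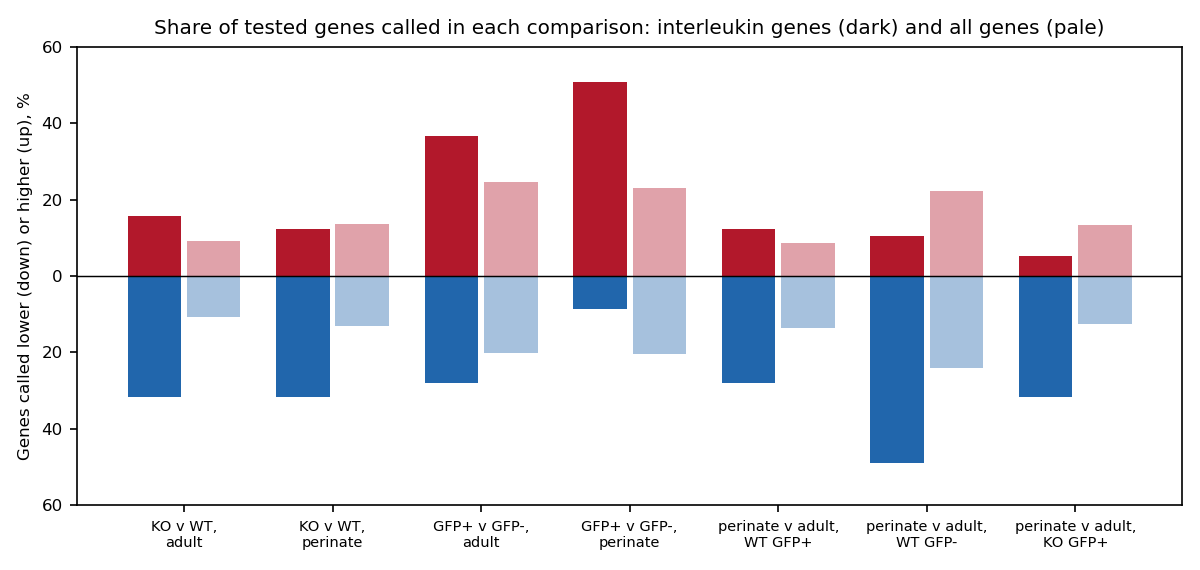
Percent of tested genes called higher (upward bars) or lower (downward bars) in each of 7 comparisons, dark for the 57 interleukin members and pale for all 13842 tested genes. The dark bar of genes higher in perinate GFP+ than GFP- cells reaches 50.9% against 23%, and that of genes lower in perinate than adult GFP- cells reaches 49.1% against 24.2%. The 50.9% includes Il1a, Il24, Il31ra, Il5, Il3 and Il12b, tested only because of WT GFP+ arrays.

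Ligands of the common gamma chain and type 2 families were called in both directions. Of 7 tested, Il9, Il3 and Il5 were lower in KO cells at both ages, Il4 and Il15 were higher in adult KO cells, and Il13 and Il7 were higher in perinate KO cells. Over all genes 10.8% were lower and 9.06% higher in adults, and 13% and 13.5% in perinates. Il3 and Il5 were tested only because of the WT GFP+ cells. Il9, a growth factor of mast cells and T cells, read 673, 712 and 721 in adult WT GFP+ cells and 58.6, 62.2 and 57.1 in adult KO cells. Perinates gave 816, 603 and 676 in WT and 63.3, 57.2 and 55.6 in KO cells. All 6 KO arrays were near background and far from every WT GFP+ array. The difference was -3.57 ± 0.21 (SE of log2, n = 3 and 3) in adults, at least 6.88-fold lower with an adjusted p of 1.47e-09, and -3.56 ± 0.21 in perinates, at least 7.06-fold lower with an adjusted p of 2.83e-09. In GFP- cells Il9 read 143, 181 and 84.6 in adults and 49.5 and 79.3 in perinates, all below every WT GFP+ array (2.43 ± 0.21 higher in GFP+ cells in adults, adjusted p = 1.96e-07, and 3.47 ± 0.24, at least 6.55-fold, in perinates, adjusted p = 8.51e-09). Il9 was lower in perinate than adult GFP- cells (-1.05 ± 0.24, adjusted p = 0.00168), a call lost without perinate GFP- array 1 (adjusted p = 0.0519), and did not pass between ages in WT or KO GFP+ cells.

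Il3, a growth factor of blood progenitors and mast cells, read 193, 234 and 377 in adult WT GFP+ cells and 20.04, 22.2 and 24.1 in adult KO cells. At the perinate age the values were 132, 146 and 143 in WT GFP+ cells and 18.5, 21.5 and 23.1 in KO cells. No KO array reached a WT GFP+ array at either age. The difference was -3.54 ± 0.34 in adults (at least 2.52-fold lower, adjusted p = 5.08e-07) and -2.75 ± 0.34 in perinates (at least 1.43-fold lower, adjusted p = 1.4e-05). GFP- cells read 77.9, 124 and 30.6 in adults and 23.9 and 21.9 in perinates. They lay below the WT GFP+ cells of their age on every array, by 1.95 ± 0.34 in adults (adjusted p = 0.000189) and 2.62 ± 0.38 in perinates (at least 1.33-fold, adjusted p = 2.87e-05). Between ages Il3 was called only in GFP- cells (-1.54 ± 0.38, adjusted p = 0.00312).

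Il5, which drives eosinophil growth, read 305, 321 and 319.7 in adult WT GFP+ cells and 58.3, 50.3 and 49.0 in adult KO cells. Among perinates the arrays read 131, 313 and 228 in WT GFP+ cells and 34.7, 36.1 and 34.0 in KO cells. GFP- cells read 39.4, 59.4 and 34.6 in adults and 35.1 and 45.0 in perinates. WT GFP+ cells were thus the only groups above background, at both ages. KO minus WT was -2.59 ± 0.24 at both ages (at least 3.09-fold lower in adults, adjusted p = 2.99e-07, and at least 2.14-fold in perinates, adjusted p = 4.35e-07). GFP+ exceeded GFP- cells at least 2.91-fold in adults (2.86 ± 0.24, adjusted p = 1.03e-07) and at least 1.99-fold in perinates (2.41 ± 0.26, adjusted p = 1.45e-06).

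Il4, the cytokine that sets the type 2 helper fate, moved the other way in adults. It read 117, 159 and 140.3 in adult WT GFP+ cells and 287, 313 and 243 in adult KO cells, with no overlap (1.03 ± 0.16, 2.04-fold higher, adjusted p = 0.00013). The perinate values were 88.7, 88.9 and 104 in WT GFP+ cells and 84.4, 102 and 123 in KO cells, which overlapped and did not pass (0.12 ± 0.16, adjusted p = 0.58). GFP- cells read 101, 136 and 103 in adults and 65.3 and 74.2 in perinates, and the sorts did not differ past the threshold at either age. Perinates were lower than adults in KO cells (-1.46 ± 0.16, adjusted p = 9.93e-06), in GFP- cells (-0.69 ± 0.18, adjusted p = 0.00391) and in WT GFP+ cells (-0.56 ± 0.16, adjusted p = 0.0182). The last call was lost without adult WT GFP+ array 7 or 8 or perinate WT GFP+ array 5 or 6, which gave adjusted p of 0.0904, 0.056, 0.0595 and 0.0533.

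Il13, the effector cytokine of type 2 responses at epithelia, was higher in GFP+ than GFP- cells, in adults than perinates and, among perinates, in KO than WT cells. It read 701, 774 and 344 in adult GFP-, 2345, 2439.8 and 2595 in adult WT GFP+ and 4257, 3586 and 3859 in adult KO cells. In perinates it read 164 and 139 in GFP-, 786, 1197 and 1336 in WT GFP+ and 1441, 2266 and 2861 in KO cells. KO arrays lay above WT GFP+ arrays at both ages. The difference passed in perinates (0.96 ± 0.27, 1.95-fold, adjusted p = 0.0158) but not in adults (0.66 ± 0.27, adjusted p = 0.104). The perinate call was lost without KO array 2 or 3 or WT GFP+ array 5 (adjusted p = 0.0574, 0.0874 and 0.0892) and with KO array 1 alone (0.519). GFP+ exceeded GFP- cells by 2.10 ± 0.27 in adults (adjusted p = 1.1e-05) and 2.84 ± 0.31 in perinates (adjusted p = 1.14e-06). Perinates were below adults in WT GFP+ (-1.19 ± 0.27, adjusted p = 0.00568), GFP- (-1.92 ± 0.31, adjusted p = 7.38e-05) and KO cells (-0.89 ± 0.27, adjusted p = 0.025), and the call in KO cells was lost without adult KO array 1 or 3 or perinate KO array 1 (adjusted p = 0.0731, 0.0599 and 0.134).

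Along the type 2 cluster of chromosome 11, genes that fell in KO cells and genes that did not lay side by side. The order there is Il4, Il13, Rad50, Il5, Irf1, Slc22a5, Slc22a21, Slc22a4, Pdlim4, P4ha2, Csf2 and Il3. Rad50, a DNA repair gene between Il13 and Il5, differed by 0.35 ± 0.18 in adults (adjusted p = 0.177) and was higher in perinate KO cells (0.57 ± 0.18, adjusted p = 0.0245). Irf1, an interferon regulatory factor on the other side of Il5, passed at neither age (-0.10 ± 0.24 and -0.13 ± 0.24, adjusted p = 0.81 and 0.723). Between Irf1 and Il3, Slc22a4, a membrane transporter, was lower in KO cells at both ages (-0.28 ± 0.09, adjusted p = 0.0433, and -0.60 ± 0.09, adjusted p = 0.000135) and Pdlim4 was higher in perinates (0.58 ± 0.11, adjusted p = 0.00105). Csf2, the granulocyte-macrophage factor beside Il3, was near background on average in every group (39.4 to 76.7) and was not tested.

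**Figure D3:**
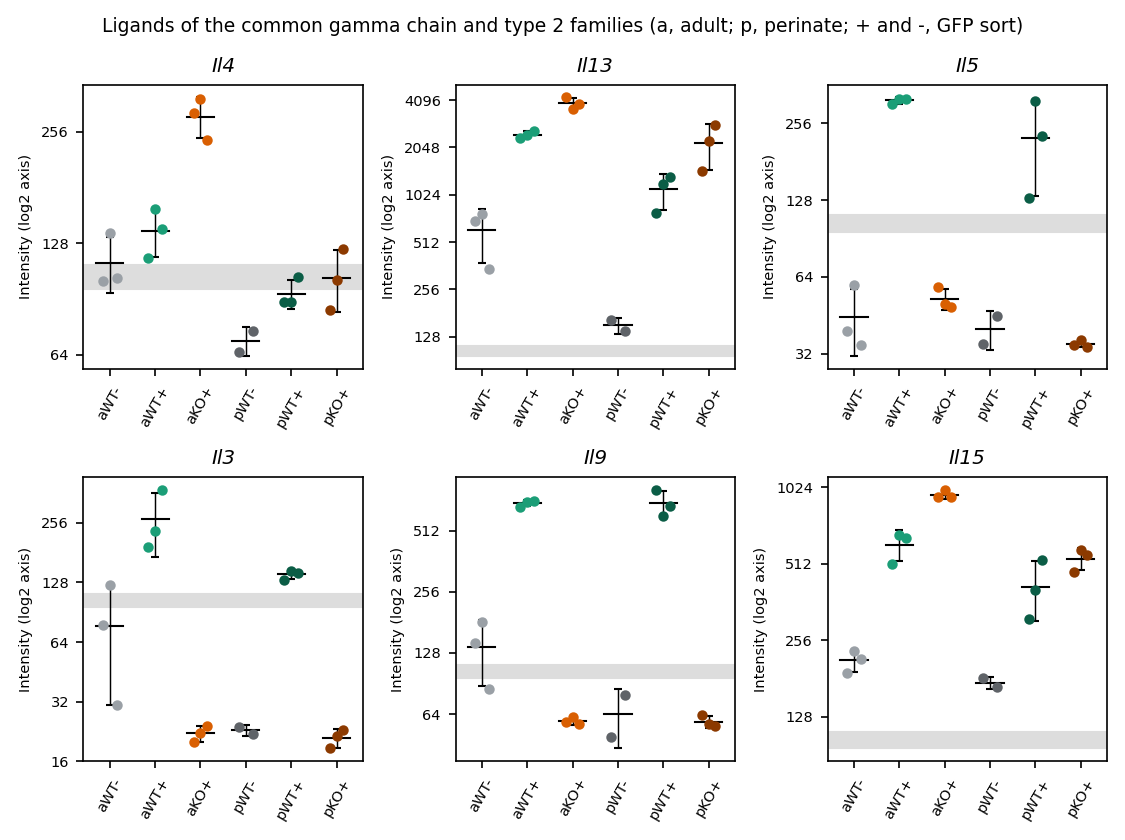
Intensity (log2 axis) of 6 ligands on each array, by group (a, adult; p, perinate; + and -, GFP sort), with bars for the mean and SD of the linear values and a grey band for the range of the 40th percentile over arrays. The Il5, Il3 and Il9 points of both KO groups lie under the band while those of both WT GFP+ groups lie above it, and the Il4 points of adult KO cells (243 to 313) lie above all other groups.

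Il15 and Il7, which sustain lymphocytes, differed in opposite ways by sort. Il15, a factor for natural killer and memory T cells, read 191, 234 and 217 in adult GFP-, 511, 667 and 648 in adult WT GFP+ and 935, 1003 and 942 in adult KO cells. At the perinate age the values were 182 and 168, then 311, 403 and 530.0, then 477, 579 and 554 in the same order of groups. It rose with the sort by 1.504 ± 0.16 in adults (adjusted p = 1.25e-06) and 1.21 ± 0.18 in perinates (adjusted p = 3.02e-05). In adult KO cells it was 0.67 ± 0.16 higher with no overlap (1.59-fold, adjusted p = 0.0059), and in perinate KO cells 0.40 ± 0.16 higher with overlap (adjusted p = 0.0696). Perinates were below adults in KO cells (-0.84 ± 0.16, adjusted p = 0.00109) and in WT GFP+ cells (-0.58 ± 0.16, adjusted p = 0.0152), the latter call being lost without adult WT GFP+ array 7 or 8 or perinate WT GFP+ array 5 (adjusted p = 0.0681, 0.0604 and 0.0811).

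Il7, the survival factor of early thymocytes, read 350.1, 345 and 451 in adult GFP-, 226, 276 and 306 in adult WT GFP+ and 266, 351 and 267 in adult KO cells. Among perinates the arrays read 477 and 700.4, then 283, 372 and 435, then 506, 534 and 666. It was the only ligand of its family lower in GFP+ than GFP- cells at both ages (-0.50 ± 0.19, adjusted p = 0.038, and -0.69 ± 0.21, adjusted p = 0.013). Perinates exceeded adults in GFP- cells (0.61 ± 0.21, adjusted p = 0.0248) and in KO cells (0.95 ± 0.19, adjusted p = 0.00157), and perinate KO cells exceeded WT (0.66 ± 0.19, adjusted p = 0.0161) while adult KO cells did not pass (0.13 ± 0.19, adjusted p = 0.681). Each of these calls except the age call in KO cells was lost without single arrays. The call by sort was lost in adults without GFP- array 8 or GFP+ array 6 or 7 (adjusted p = 0.151, 0.152 and 0.0666) and in perinates without GFP- array 2 or GFP+ array 5 (0.209 and 0.0624). The call in perinate KO cells was lost without KO array 3 or WT GFP+ array 5 (0.0817 and 0.0925) and with KO array 1 alone (0.296), which also ended the age call in KO cells (0.0647). The age call in GFP- cells was lost without adult array 6 or 7 or perinate array 2 (0.0683, 0.0755 and 0.31). The cortical marker sum moved with Il7 in perinate GFP- cells, and its part in this was not tested.

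Among 11 tested receptor chains of these ligands, KO cells had 2 higher and 2 lower in adults, with the same counts in perinates. Over all genes 9.06% were higher and 10.8% lower in adults, and 13.5% and 13% in perinates. Il2rb, the signalling chain shared by the IL-2 and IL-15 receptors, read 177, 226 and 204 in adult WT GFP+ and 95.8, 100.2 and 101 in adult KO cells. The perinate values were 188, 138 and 167 in WT GFP+ and 82.0, 66.5 and 67.0 in KO cells. It fell to near background without overlap at both ages (-1.03 ± 0.16, at least 1.97-fold, adjusted p = 0.000187, and -1.19 ± 0.16, at least 1.66-fold, adjusted p = 4.22e-05). GFP- cells read 129, 126 and 91.2 in adults and 73.7 and 50.9 in perinates, below WT GFP+ cells by 0.82 ± 0.16 (adjusted p = 0.000637) and 1.42 ± 0.18 (at least 1.54-fold, adjusted p = 8.42e-06). Il2rb was lower in perinates than adults in GFP- cells (-0.90 ± 0.18, adjusted p = 0.00071). In KO cells the age difference of -0.47 ± 0.16 (adjusted p = 0.0436) was lost without any 1 of adult KO arrays 1, 2 and 3 or perinate KO arrays 2 and 3 (adjusted p = 0.0722 to 0.13), and with perinate KO array 1 alone it gave 0.492.

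Il21r, the receptor of the T helper cytokine IL-21, rose in KO cells at both ages. It read 215, 260.1 and 274 in adult WT GFP+ and 505, 466 and 494 in adult KO cells, and 197, 282 and 294 in perinate WT GFP+ and 342, 436 and 464 in perinate KO cells. The groups were apart at both ages (0.98 ± 0.17, 1.97-fold, adjusted p = 0.00046, and 0.69 ± 0.17, 1.61-fold, adjusted p = 0.00698), and the perinate call was lost with KO array 1 alone (adjusted p = 0.315). GFP- cells read 153, 126 and 141 in adults and 77.5 and 114 in perinates, below GFP+ cells by 0.83 ± 0.17 (adjusted p = 0.000819) and 1.43 ± 0.19 (adjusted p = 1.16e-05). Perinate GFP- cells were below adult ones (-0.57 ± 0.19, adjusted p = 0.0214), a call lost without adult array 6 or perinate array 1 (0.0657 and 0.312). Its neighbour on the chromosome, Il4ra, the chain shared by the IL-4 and IL-13 receptors, did not pass between genotypes (-0.02 ± 0.10 and 0.11 ± 0.10, adjusted p = 0.908 and 0.426).

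Il4ra read 1488, 1487 and 1521 in adult GFP-, 1879, 1816 and 1811 in adult WT GFP+ and 1928, 1772 and 1731 in adult KO cells. Perinates gave 885 and 685, then 1229, 1377 and 1285, then 1324, 1442 and 1431. Perinates were below adults in all 3 cell classes, by -0.94 ± 0.11 in GFP- (adjusted p = 2.92e-06), -0.50 ± 0.10 in WT GFP+ (adjusted p = 0.00188) and -0.37 ± 0.10 in KO cells (adjusted p = 0.011), the last lost with KO array 1 alone (0.0584). The sort raised it by 0.73 ± 0.11 in perinates (adjusted p = 4.18e-05) and by 0.29 ± 0.10 in adults (adjusted p = 0.0235), the latter lost without adult GFP- array 6 or 7 or GFP+ array 6 or 7 (0.0538, 0.0593, 0.0685 and 0.0506). Its partner Il13ra1 read 1728 to 2611 over all 17 arrays and passed in none of the 7 comparisons of 2 groups. Il15ra, which presents IL-15 to neighbouring cells, read 789 to 1326 and passed in none either, although Il15 itself rose with the sort.

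Il7r, the chain shared by the IL-7 and TSLP receptors, and Il5ra and Il9r, the private chains of the IL-5 and IL-9 receptors, were near or at their lowest in perinate GFP- cells. Il7r read 371, 371 and 362 in adult GFP- cells and 49.8 and 71.9 in perinate GFP- cells. It read 236, 264 and 227 in adult WT GFP+, 242, 266 and 269 in adult KO, 204, 226 and 249 in perinate WT GFP+ and 289.8, 266 and 258 in perinate KO cells. The 4 GFP+ groups thus lay between 204 and 290 while the GFP- groups sat above and below them. GFP+ minus GFP- was -0.61 ± 0.12 in adults (adjusted p = 0.000706) and 1.91 ± 0.14 in perinates (at least 2.13-fold, adjusted p = 1.25e-08). Perinate GFP- cells were at least 3.48-fold below adult ones (-2.62 ± 0.14, adjusted p = 5.4e-10), and neither genotype comparison passed.

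Il5ra read 273, 247 and 225 in adult GFP-, 200.0, 173 and 201 in adult WT GFP+ and 140.3, 208 and 94.5 in adult KO cells. In perinates it read 42.7 and 45.5, then 94.0, 112 and 99.5, then 54.4, 51.7 and 54.3. It was lower in perinates in all 3 classes (-2.49 ± 0.21 in GFP-, adjusted p = 1.11e-07, -0.91 ± 0.19 in WT GFP+, adjusted p = 0.00284, and -1.39 ± 0.19 in KO cells, adjusted p = 7.7e-05). KO cells were lower in perinates (-0.93 ± 0.19, at least 1.03-fold, adjusted p = 0.00183, and 0.0687 with KO array 1 alone), and the adult difference did not pass (-0.45 ± 0.19, adjusted p = 0.114). GFP+ exceeded GFP- cells in perinates (1.20 ± 0.21, adjusted p = 0.000196).

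Il9r read 202, 260.2 and 252 in adult GFP-, 499, 500.4 and 569 in adult WT GFP+ and 765, 656 and 734 in adult KO cells. Among perinates the arrays read 114 and 128, then 446, 370.0 and 403, then 333, 590.2 and 619.9. It rose with the sort at both ages (1.14 ± 0.18, adjusted p = 8e-05, and 1.75 ± 0.20, adjusted p = 2.56e-06) and was not called between genotypes (adjusted p = 0.089 and 0.245), unlike its ligand. It was lower in perinates in GFP- cells (-0.97 ± 0.20, adjusted p = 0.000862) and in KO cells (-0.53 ± 0.18, adjusted p = 0.0392), the latter lost without adult KO array 1, 2 or 3 or perinate KO array 1 (0.106, 0.0563, 0.0999 and 0.206). Of the remaining chains, the decoy Il13ra2 was higher in KO cells at both ages (0.98 ± 0.26, adjusted p = 0.0128, and 0.89 ± 0.26, adjusted p = 0.0177), Il2ra was lower in adult KO cells (-0.55 ± 0.16, adjusted p = 0.024) and Il3ra was called nowhere.

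The ligands and antagonists of the IL-1 family were lower or not called in KO cells. Of 7 tested, 4 were lower in adults (Il1a, Il33, Il1f6 and Il1f5) and 4 in perinates (Il1a, Il1f6, Il1f9 and Il1f5), and 0 were higher. Over all genes 10.8% were lower and 9.06% higher in adults, and 13% and 13.5% in perinates. Il1a was tested only because of the WT GFP+ cells and is no support for these counts. Il1a, an alarmin of damaged epithelium, read 168, 201 and 154 in adult WT GFP+ and 30.2, 25.9 and 38.5 in adult KO cells. The perinate values were 81.1, 138 and 98.5 in WT GFP+ and 34.1, 19.8 and 23.0 in KO cells. It was lost without overlap at both ages (-2.48 ± 0.26, at least 1.70-fold, adjusted p = 1.8e-06, and -2.05 ± 0.26, at least 1.05-fold, adjusted p = 2.03e-05). GFP- cells read 70.2, 43.8 and 37.6 in adults and 38.4 and 23.5 in perinates, all near background. WT GFP+ cells rose above background on every adult array, but in perinates only on array 6 (138). They exceeded GFP- cells by 1.83 ± 0.26 in adults (adjusted p = 2.91e-05) and 1.78 ± 0.29 in perinates (adjusted p = 0.000102). The perinate difference lies mostly among values near background, and no fold is given for it.

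Il33, a nuclear alarmin, read 128, 116 and 108 in adult WT GFP+ and 49.2, 40.8 and 53.1 in adult KO cells (-1.30 ± 0.23, at least 1.15-fold lower, adjusted p = 0.000504). Perinate WT GFP+ cells read 64.1, 95.6 and 77.7 and KO cells 55.8, 47.7 and 54.9, all near background (adjusted p = 0.0768). GFP- cells read 179, 74.7 and 112 in adults and 121 and 92.6 in perinates, overlapping with the GFP+ cells, and neither sort nor age passed.

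The IL-36 group of adjacent genes had its highest values in adult GFP- cells. Il1f5 (the IL-36 receptor antagonist) read 551, 305 and 416 there, Il1f6 (IL-36 alpha) 508, 243 and 309, and Il1f9 (IL-36 gamma) 472, 338 and 384. In adult WT GFP+ cells Il1f5 read 163, 178 and 204, Il1f6 142, 127 and 133, and Il1f9 197, 176 and 194. All 3 were lower in adult GFP+ cells (-1.19 ± 0.17, -1.33 ± 0.23 and -1.06 ± 0.24, adjusted p = 3.2e-05, 0.000164 and 0.00175). In adult KO cells Il1f5 read 87.5, 73.0 and 66.4 (-1.27 ± 0.17, at least 1.77-fold lower, adjusted p = 3.44e-05) and Il1f6 94.8, 68.0 and 47.5 (-0.99 ± 0.23, at least 1.31-fold lower, adjusted p = 0.00476). Il1f9 read 178, 198 and 92.6 and did not pass (-0.35 ± 0.24, adjusted p = 0.332).

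In perinates these 3 genes were near background on all KO and WT GFP+ arrays and on all but 1 value of the GFP- arrays. GFP- cells read 99.3 and 99.9 for Il1f5, 105 and 86.2 for Il1f6, and 88.7 and 46.01 for Il1f9, and WT GFP+ cells read 83.8 to 109, 88.5 to 92.7 and 61.6 to 63.2. KO cells read 57.9 to 63.5, 38.6 to 42.1 and 28.0 to 29.3. These differences passed (adjusted p = 0.0147, 0.00112 and 0.00238) but give no fold above background, and the call of Il1f5 was lost without perinate WT GFP+ array 7 (0.0666). With perinate KO array 1 alone, Il1f5 gave 0.131 and Il1f9 gave 0.0639. Perinate GFP- cells were below adult ones by -2.05 ± 0.19 for Il1f5 (at least 3.89-fold, adjusted p = 2.86e-07), -1.82 ± 0.25 for Il1f6 (adjusted p = 2.05e-05) and -2.63 ± 0.27 for Il1f9 (at least 3.73-fold, adjusted p = 6.72e-07). Among WT GFP+ cells, Il1f5 and Il1f9 were lower in perinates (-0.96 ± 0.17, adjusted p = 0.00093, and -1.60 ± 0.24, adjusted p = 0.000239), and among KO cells Il1f9 was (-2.38 ± 0.24, at least 1.51-fold, adjusted p = 5.46e-06). The age difference of Il1f6 in KO cells (-0.76 ± 0.23, adjusted p = 0.0218) lay near background and was lost without adult KO array 1 or 2 or perinate KO array 1 or 3 (0.112, 0.059, 0.0602 and 0.0614) and with perinate KO array 1 alone (0.144).

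Il1rn, the IL-1 receptor antagonist and next to these genes on chromosome 2, was bright throughout. It read 2355, 1917 and 1565 in adult GFP-, 2224, 1712 and 1851 in adult WT GFP+ and 2518, 2513 and 2432 in adult KO cells. Perinates gave 963 and 459.8, then 1434, 1685 and 1306, then 1665, 1604 and 1624. It stood apart only in perinate GFP- cells, at 1.14 ± 0.23 below WT GFP+ cells (2.20-fold, adjusted p = 0.000616) and -1.53 ± 0.23 against adult GFP- cells (2.88-fold lower, adjusted p = 3.73e-05). The age difference in KO cells (-0.61 ± 0.20, adjusted p = 0.0361) was lost without any 1 of the 6 KO arrays (0.0757 to 0.0884) and with perinate KO array 1 alone (0.237). The IL-18 inhibitor Il18bp was called nowhere.

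Of 4 tested IL-1 family receptors, Il1r2 and Il18r1 rose with the sort at both ages, where 24.7% of all genes did in adults and 23% in perinates. Il1r2, a decoy receptor of IL-1, read 246, 211 and 241 in adult GFP- and 725, 671 and 677 in adult WT GFP+ cells, and 198 and 170.5 in perinate GFP- and 962, 773 and 690.3 in perinate WT GFP+ cells. KO cells read 858, 835 and 737 in adults and 875, 875 and 822 in perinates, close to WT GFP+ cells (adjusted p = 0.197 and 0.558). The sort difference was 1.57 ± 0.12 in adults (2.98-fold, adjusted p = 4.05e-08) and 2.12 ± 0.13 in perinates (4.36-fold, adjusted p = 2.71e-09). In GFP- cells perinates were lower (-0.34 ± 0.13, adjusted p = 0.0447), a call lost without adult array 6 or 8 or perinate array 2 (0.112, 0.0993 and 0.286).

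Il18r1, the binding chain for IL-18, read 1147, 1112 and 1084 in adult GFP-, 1362, 1602 and 1457 in adult WT GFP+ and 1973, 1976 and 1932 in adult KO cells. At the perinate age the values were 237 and 295, then 1789, 1242 and 1424, then 1338, 1609 and 1692. Perinate GFP- cells were below every other group, by 2.47 ± 0.15 against WT GFP+ cells (5.55-fold, adjusted p = 1.59e-09) and by 4.21-fold against adult GFP- cells (-2.08 ± 0.15, adjusted p = 1.33e-08). The smaller adult differences by sort (0.40 ± 0.13, adjusted p = 0.0194) and genotype (0.41 ± 0.13, adjusted p = 0.0328) were lost without adult GFP- array 8 or GFP+ array 7 for the sort (0.0532 and 0.0814) and without WT GFP+ array 6 or 8 or KO array 1, 2 or 3 for the genotype (0.115, 0.0872, 0.0748, 0.0935 and 0.0637). The ligand Il18 was near background on all arrays. Il1rl2, the IL-36 receptor, was higher in adult KO cells (0.42 ± 0.11, adjusted p = 0.01), and the accessory chain Il1rap was lower in perinate KO cells (-0.44 ± 0.14, adjusted p = 0.0313).

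The subunits of IL-12 did not move together. IL-12 pairs p35 (Il12a) with p40 (Il12b), and IL-23 pairs p19 (Il23a) with p40. Il12a read 485, 466 and 469 in adult WT GFP+ and 1119.6, 788 and 889 in adult KO cells, and 299.7, 369.9 and 415 in perinate WT GFP+ and 631, 444 and 476 in perinate KO cells. Il12b read 142, 159 and 146 in adult WT GFP+ and 71.8, 85.9 and 79.8 in adult KO cells, and 130.3, 170.0 and 134 in perinate WT GFP+ and 58.6, 66.6 and 53.4 in perinate KO cells. Il12a rose in KO cells by 0.96 ± 0.17 in adults (1.95-fold, adjusted p = 0.000457) and 0.51 ± 0.17 in perinates (1.43-fold, adjusted p = 0.0333), while Il12b fell to near background at both ages (-0.91 ± 0.15, adjusted p = 0.000186, and -1.28 ± 0.15, adjusted p = 5.53e-06, at least 1.46-fold each). The perinate call of Il12a was lost without KO array 1 or 3 or WT GFP+ array 5 or 6 (0.142, 0.0544, 0.154 and 0.0523).

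Both subunits were higher in GFP+ than GFP- cells. Il12a read 282, 275 and 196 in adult and 115 and 109 in perinate GFP- cells (0.93 ± 0.17, adjusted p = 0.00026, and 1.68 ± 0.19, adjusted p = 1.71e-06). Il12b read 109, 86.2 and 124 in adult and 70.1 and 89.0 in perinate GFP- cells (0.50 ± 0.15, adjusted p = 0.0101, and 0.86 ± 0.16, adjusted p = 0.000377), and its adult call was lost without GFP- array 7 (0.066). Il12a was lower in perinates in GFP- cells (-1.15 ± 0.19, adjusted p = 9.57e-05) and KO cells (-0.85 ± 0.17, adjusted p = 0.00158, and 0.128 with perinate KO array 1 alone). The age differences of Il12b were small, -0.41 in GFP- cells and -0.41 in KO cells (adjusted p = 0.0472 and 0.0458). They were lost without adult GFP- array 6 or 8 or perinate GFP- array 1 (0.0984, 0.173 and 0.358), and without adult KO array 2 or 3 or perinate KO array 1 or 3 (0.153, 0.108, 0.105 and 0.165) or with perinate KO array 1 alone (0.198).

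Il23a read 549.7, 557 and 351 in adult GFP-, 1375, 1161 and 857 in adult WT GFP+ and 1655, 1462 and 1598 in adult KO cells. In perinates it read 226 and 139, then 614, 671 and 647, then 645, 812 and 756. It was called by sort and age. GFP+ exceeded GFP- cells by 1.22 ± 0.20 in adults (adjusted p = 0.000104) and 1.86 ± 0.22 in perinates (adjusted p = 3.82e-06), perinates were lower in GFP- (-1.43 ± 0.22, adjusted p = 6.31e-05), WT GFP+ (-0.79 ± 0.20, adjusted p = 0.00995, and 0.0513 without adult array 6) and KO cells (-1.10 ± 0.20, adjusted p = 0.00088), and the genotype differences did not pass (0.50 ± 0.20 and 0.19 ± 0.20, adjusted p = 0.0928 and 0.495), although every adult KO array lay above every adult WT GFP+ array. Il27, the p28 subunit of IL-27, was lower in KO cells at both ages (-0.41 ± 0.13, adjusted p = 0.0295, and -0.51 ± 0.13, adjusted p = 0.00657).

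The receptor chains of this family gave the largest age differences of the 57 tested members, in GFP- cells. Il12rb2, the signalling chain of the IL-12 receptor, read 985, 909.5 and 781 in adult GFP- and 94.1 and 80.3 in perinate GFP- cells. It read 394, 380.0 and 429 in adult and 343, 433 and 496 in perinate WT GFP+ cells, and 289, 239 and 252 in adult and 173, 204 and 244 in perinate KO cells. GFP- cells were thus the highest group in adults and the lowest in perinates, where both arrays were near background. The age difference in GFP- cells was -3.35 ± 0.17 (at least 8.39-fold, adjusted p = 3.25e-10), while that in WT GFP+ cells was 0.07 ± 0.15 (adjusted p = 0.783). By sort it was -1.15 ± 0.15 in adults (adjusted p = 1.01e-05) and 2.27 ± 0.17 in perinates (at least 3.96-fold, adjusted p = 1.55e-08). In KO cells it was lower at both ages (-0.63 ± 0.15, 1.54-fold, adjusted p = 0.00565, and -1.03 ± 0.15, 2.04-fold, adjusted p = 6.88e-05).

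Il23r, its neighbour on chromosome 6 and the private chain of the IL-23 receptor, read 1424, 1655 and 1206 in adult GFP- and 173 and 119 in perinate GFP- cells (-3.31 ± 0.22, 9.89-fold lower, adjusted p = 7.35e-09). WT GFP+ cells read 1560.4, 1829 and 1529 in adults and 1228, 777 and 1134 in perinates, and KO cells 1588, 1816 and 1511 in adults and 1411, 2086 and 2199 in perinates. The sort made no called difference in adults (0.21 ± 0.20, adjusted p = 0.414) and a 7.16-fold one in perinates (2.84 ± 0.22, adjusted p = 2.93e-08). KO cells were higher than WT in perinates (0.86 ± 0.20, adjusted p = 0.0042, and 0.317 with KO array 1 alone) and not in adults (-0.00 ± 0.20, adjusted p = 0.998). The age difference in WT GFP+ cells (-0.67 ± 0.20, adjusted p = 0.0216) was lost without adult array 7 or perinate array 6 (0.0874 and 0.102).

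Il6st (gp130), the shared signalling chain of the IL-6 family, ran against this pattern. It read 2627 and 2621 in perinate GFP- cells, above all other arrays, against 956, 923 and 1390.4 in adult GFP- cells (1.29 ± 0.19, 2.45-fold, adjusted p = 2.81e-05). WT GFP+ cells read 638, 531 and 569 in adults and 882, 1234 and 952 in perinates, and KO cells 747, 589 and 564 in adults and 1359.7, 1081 and 1052 in perinates. It was lower in GFP+ than GFP- cells at both ages (-0.89 ± 0.17, adjusted p = 0.000377, and -1.37 ± 0.19, adjusted p = 1.49e-05) and higher in perinates also in WT GFP+ (0.81 ± 0.17, adjusted p = 0.00271) and KO cells (0.88 ± 0.17, adjusted p = 0.00121). The genotype differences did not pass (adjusted p = 0.661 and 0.409). Its neighbour Il31ra, a receptor of the itch cytokine IL-31, read 109, 131 and 91.8 in adult WT GFP+ and 64.1, 55.9 and 74.6 in adult KO cells (-0.77 ± 0.19, at least 1.07-fold lower, adjusted p = 0.00728).

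Il31ra was near background elsewhere or close to it. It read 49.6, 53.0 and 45.5 in adult GFP- cells (1.15 ± 0.19 for the sort, at least 1.01-fold, adjusted p = 9.93e-05) and 44.6 and 52.0 in perinate GFP- cells. Perinate WT GFP+ cells read 122, 65.8 and 102 (0.96 ± 0.21 for the sort, adjusted p = 0.00134) and KO cells 76.1, 85.2 and 95.3, overlapping with WT. Il27ra, the receptor of IL-27, read 128, 132 and 139 in adult GFP-, 263, 271 and 251 in adult WT GFP+, 314, 259.6 and 299.8 in adult KO, 91.0 and 118 in perinate GFP-, 237, 187 and 211 in perinate WT GFP+ and 201, 283 and 278 in perinate KO cells. It was called by sort alone (0.98 ± 0.14, adjusted p = 2.5e-05, and 1.03 ± 0.15, adjusted p = 4e-05). Il6ra and Il12rb1 were higher in adult KO cells (0.36 ± 0.11, adjusted p = 0.0238, and 0.46 ± 0.13, adjusted p = 0.0167).

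**Figure D4:**
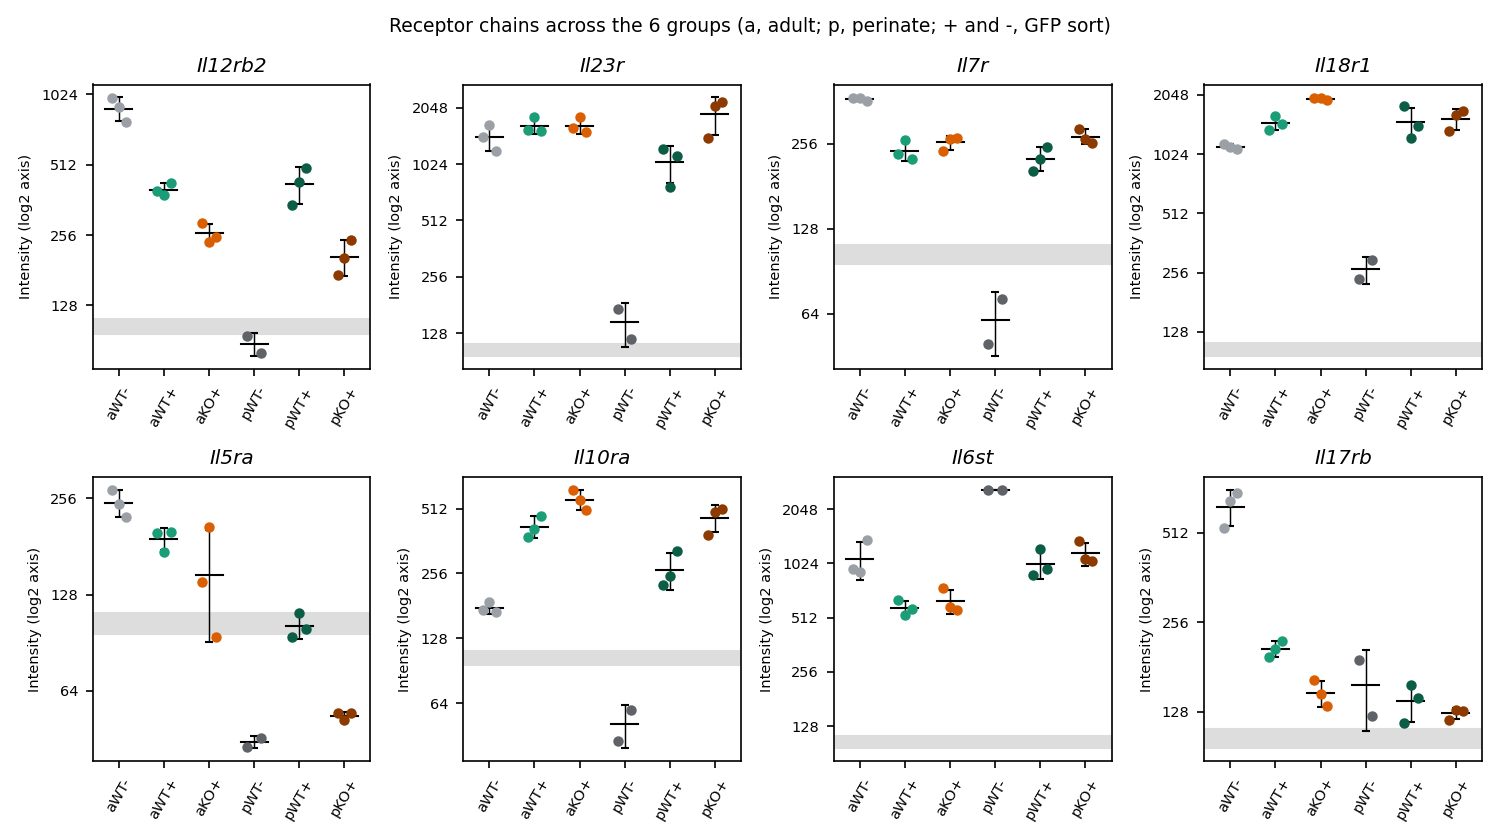
Intensity (log2 axis) of 8 receptor chains on each array, by group (a, adult; p, perinate; + and -, GFP sort), with bars for the mean and SD of the linear values and a grey band for the range of the 40th percentile over arrays. The perinate GFP- points are the lowest group for Il12rb2, Il23r, Il7r, Il18r1, Il5ra and Il10ra and the highest for Il6st (2621 and 2627).

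Il10, the main anti-inflammatory interleukin, was highest in adult GFP- cells. It read 492, 464 and 481 there, 110.2, 62.0 and 106 in adult WT GFP+, 135, 100.4 and 83.4 in adult KO, 108 and 47.5 in perinate GFP-, 43.8, 54.1 and 56.4 in perinate WT GFP+ and 52.5, 50.1 and 44.5 in perinate KO cells. Every adult GFP- array lay far above all arrays of the other groups, which reached 135. The fitted difference was -2.42 ± 0.26 by sort in adults (adjusted p = 1.33e-06) and -2.74 ± 0.29 by age in GFP- cells (adjusted p = 8.56e-07). No fold is given, since only 1 array each of adult WT GFP+ and perinate GFP- cells was above the percentile. Smaller age differences near background in WT GFP+ cells (-0.81 ± 0.26, adjusted p = 0.0311) and KO cells (-1.09 ± 0.26, adjusted p = 0.00507) also passed, the first lost without adult array 6 or 8 or perinate array 5 or 6 (0.116, 0.114, 0.109 and 0.0524) and the second with perinate KO array 1 alone (0.103). Il24, of the same gene block and a signal to skin and other epithelia, read 98.7, 159 and 121 in adult and 121, 96.7 and 146 in perinate WT GFP+ cells, and 33.9, 29.4 and 38.6 and 27.5, 30.6 and 33.9 in KO cells. It was lost in KO cells at both ages (-1.88 ± 0.22, at least 1.21-fold, adjusted p = 5.08e-06, and -1.97 ± 0.22, at least 1.22-fold, adjusted p = 3.52e-06). GFP- cells read 64.0, 72.2 and 43.4 in adults and 73.0 and 48.1 in perinates, near background and lower than GFP+ cells (1.08 ± 0.22, at least 1.14-fold, adjusted p = 0.000629, and 1.02 ± 0.24, at least 1.13-fold, adjusted p = 0.00251, the second lost without perinate GFP- array 2, 0.0636).

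The receptor chains of the IL-10 family split into 2 patterns. Il10ra, the private chain of the IL-10 receptor, read 172, 189 and 169 in adult GFP-, 380.0, 412 and 476 in adult WT GFP+ and 628, 562 and 504 in adult KO cells. The perinate values were 42.8 and 59.3, then 226, 248 and 326, then 387, 494 and 512. It rose with the sort (1.25 ± 0.16, adjusted p = 7.77e-06, and 2.39 ± 0.18, at least 2.49-fold, adjusted p = 1.7e-08), so that its order across sorts in adults was the reverse of that of Il10. KO arrays lay above WT arrays at both ages, and the difference passed in perinates (0.81 ± 0.16, 1.75-fold, adjusted p = 0.00121, and 0.144 with KO array 1 alone) but not in adults (0.42 ± 0.16, adjusted p = 0.074). Perinates were lower in GFP- (-1.81 ± 0.18, at least 1.67-fold, adjusted p = 3.94e-07) and WT GFP+ cells (-0.68 ± 0.16, adjusted p = 0.00595).

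Il10rb, the shared chain of this family, was even across groups, at 849.9 to 1523 on all arrays. It was called in 2 comparisons, both involving perinate GFP- cells, which read 1523 and 1410.5 (-0.62 ± 0.13 by sort, adjusted p = 0.000785, and 0.36 ± 0.13 by age, adjusted p = 0.0284). The second call was lost without adult GFP- array 6 or perinate GFP- array 1 or 2 (0.0842, 0.151 and 0.0538). Il20rb, a chain of the receptors for IL-19, IL-20 and IL-24, was called by age in all 3 cell classes. It read 715, 668 and 875, then 685, 574 and 541, then 686, 541 and 614 in adult GFP-, WT GFP+ and KO cells, and 281 and 329.7, then 286, 288 and 289, then 301, 259 and 291 in perinates. Perinates were lower in all 3 classes (-1.30 ± 0.14, -1.05 ± 0.13 and -1.11 ± 0.13, adjusted p = 1.27e-06, 3.46e-05 and 1.49e-05), and the other 2 probe sets of Il20rb gave the same order. The small sort difference in adults (-0.32 ± 0.13, adjusted p = 0.0446) was lost without GFP- array 6 or 8 or GFP+ array 7 or 8 (0.0584, 0.204, 0.12 and 0.165) and with the replicate numbers as pairs (0.0666). Il22ra1, the IL-22 receptor of epithelia, read 72.9 to 130.4 on all arrays, and its 2 probe sets had means of 81.5 and 50.2 in adult WT GFP+ and 92.4 and 35.5 in adult KO cells, so no direction is given in adults. In perinates both were lower in KO cells (means of 111 and 59.8 in WT GFP+, 80.6 and 31.7 in KO). The brighter was called there (-0.46 ± 0.13, at least 1.12-fold, adjusted p = 0.0165), and not without KO array 2 or WT GFP+ array 5 (0.0695 and 0.094) or with KO array 1 alone (0.239).

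Of 4 tested IL-17 family ligands only Il17b was called between genotypes, where 19.9% of all genes were called in adults and 26.5% in perinates. Il17b read 215, 218 and 183 in adult GFP-, 501, 533 and 536 in adult WT GFP+ and 185, 163 and 152 in adult KO cells. Perinates gave 228 and 219, then 341, 348 and 368, then 158, 163 and 161. WT GFP+ cells lay above all other groups at both ages. KO cells were lower by -1.65 ± 0.10 in adults (3.15-fold, adjusted p = 1.01e-09) and -1.14 ± 0.10 in perinates (2.20-fold, adjusted p = 1.56e-07), and GFP+ exceeded GFP- cells by 1.35 ± 0.10 (adjusted p = 2.6e-08) and 0.66 ± 0.11 (adjusted p = 9.22e-05). Perinate WT GFP+ cells were below adult ones (-0.57 ± 0.10, adjusted p = 0.000568). Il25, a ligand known from tuft cells, read 196, 143 and 163 in adult GFP- and 143 and 126 in perinate GFP- cells. It read 89.8 to 119.7 in the 4 GFP+ groups, below or just above the 40th percentile. The sort difference was -0.78 ± 0.11 in adults (at least 1.51-fold, adjusted p = 2.76e-05) and did not pass in perinates (-0.26 ± 0.12, adjusted p = 0.105).

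The 5 IL-17 receptor chains were lower or not called in KO cells. Il17re, which binds IL-17C, read 246, 305 and 284 in adult WT GFP+ and 155, 121 and 128 in adult KO cells, and 220.4, 215 and 242 in perinate WT GFP+ and 104, 82.8 and 97.3 in perinate KO cells. It fell by 2.07-fold in adults (-1.05 ± 0.12, adjusted p = 5.47e-06) and 2.39-fold in perinates (-1.26 ± 0.12, adjusted p = 8.25e-07), while its neighbour Il17rc, a chain of the IL-17A receptor, did not pass in perinates (-0.17 ± 0.13, adjusted p = 0.35). GFP- cells read 347, 414 and 386 for Il17re in adults and 159 and 153 in perinates, above adult WT GFP+ cells (-0.46 ± 0.12 for the sort, adjusted p = 0.00554) and below perinate ones (0.53 ± 0.14, adjusted p = 0.0042). Perinates were lower in GFP- (-1.29 ± 0.14, adjusted p = 9.43e-07) and KO cells (-0.51 ± 0.12, adjusted p = 0.0059, and 0.177 with KO array 1 alone).

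Il17rc read 285, 342 and 265 in adult GFP-, 176, 204 and 246 in adult WT GFP+ and 163, 147 and 156 in adult KO cells. At the perinate age the values were 314 and 249, then 188, 174 and 206, then 152, 178 and 173. It was lower in GFP+ cells at both ages (-0.52 ± 0.13, adjusted p = 0.00512, and -0.57 ± 0.15, adjusted p = 0.0057, the second lost without perinate GFP- array 1, 0.0985). The adult KO difference (-0.41 ± 0.13, adjusted p = 0.0401) was lost without WT GFP+ array 7 or 8 or KO array 1, 2 or 3 (0.086, 0.203, 0.0588, 0.143 and 0.0789). Il17rb, the receptor of IL-25 and IL-17B, read 530.3, 655 and 699 in adult GFP- cells and 192 and 124 in perinate GFP- cells. WT GFP+ cells read 196, 208 and 221 in adults and 117, 157 and 143 in perinates, and KO cells 163, 147 and 133 and 120.1, 130.1 and 129. Adult GFP- cells exceeded adult WT GFP+ cells 3.00-fold (-1.58 ± 0.15, adjusted p = 5.2e-07) and perinate GFP- cells 4.05-fold (-2.02 ± 0.17, adjusted p = 1.04e-07).

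Smaller calls of Il17rb, in adult KO cells (-0.50 ± 0.15, adjusted p = 0.029) and between ages in WT GFP+ cells (-0.59 ± 0.15, adjusted p = 0.0108), were lost without adult WT GFP+ array 7 or 8 or KO array 2 or 3 (0.073, 0.102, 0.0823 and 0.103) and without perinate WT GFP+ array 5 (0.0559). Il25, Il17rb and Il10 were at their highest in adult GFP- cells together with tuft cell markers. All 10 tuft markers were lower in adult GFP+ than GFP- cells, as were 20.1% of all genes. Their sum was 7122 to 10333 in adult GFP-, 2207 to 3840 in perinate GFP- and 1101 to 1705 in the 4 GFP+ groups, where Gnat3 and Chat were near background. The part of these cells in the interleukin values was not tested.

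Markers of other cells moved with some of the differences above. Beside the marker counts between genotypes, 10.8% of all genes were lower and 9.06% higher in adult KO cells, and 13% and 13.5% in perinate KO cells. The sum of 11 dendritic cell and macrophage markers was 1141 to 1366 in perinate GFP- cells, where 7 of the 11 (Itgax, Itgam, Adgre1, Csf1r, Tyrobp, Flt3 and Siglech) were near background, against 4726 to 7596 in the other groups. The sum was 7473 to 7596 in adult WT GFP+ and 6388 to 6667 in adult KO cells, with 6 of 9 tested markers lower and 2 higher in KO cells, and 4798 to 5559 in perinate WT GFP+ and 4726 to 5281 in perinate KO cells, with 4 lower and 1 higher. Adgre1, among the lower at both ages, was above the percentile on WT GFP+ arrays alone, so its calls are no support for these counts. In the 5 groups other than perinate GFP- cells, 5 to 8 of the 11 were above the percentile on all arrays, and Itgax and Siglech were near background on all arrays. The sum of 9 thymocyte markers was 1002 to 2375, with 5 to 7 of the 9 above the percentile on all arrays in the 5 groups other than perinate GFP- cells and Cd3d and Ptcra near background throughout. Between genotypes 0 of 7 tested thymocyte markers were called in adults and 1 in perinates (Cd4, lower in KO cells). The sum of 6 innate lymphoid and mast cell markers was 457 to 723 in perinate GFP- and 1164 to 1839 in the other groups, with 2 of the 6 above the percentile on all arrays in each group and Cpa3, Ncr1 and Klrb1b near background throughout. Of the 3 tested, Mcpt4 was lower in KO cells at both ages (means of 132 in adult WT GFP+ and 23.0 in adult KO cells, and of 48.9 and 24.0 in perinates). Mcpt4 was above the percentile on 2 arrays only, both of adult WT GFP+ cells, and was tested only because of them. Its perinate values were all near background, and its calls are no support. Gata3 was lower in perinate KO cells (221 in WT GFP+ and 152 in KO) and Kit was higher in adult KO cells (729.7 in WT GFP+ and 1234 in KO). The part of such cells in the KO differences of Il3, Il5, Il9 and Il13 was not tested. The sum of 7 fibroblast markers was 2738 to 3099 in adult WT GFP+ and 4349 to 4682 in adult KO cells, with 2 markers higher and 2 lower, and 2053 to 5401 over all groups. In perinates 2 markers were higher and 3 lower in KO cells, and 5 or 6 of the 7 were above the percentile on all arrays in every group. The sum of 4 B cell markers was 359.6 to 465 in perinate GFP- cells and 724 to 1064 in the other groups, with 1 or 2 of the 4 above the percentile on all arrays in each group and Cd79a and Ms4a1 near background throughout. The part of such cells in the low receptor values of perinate GFP- cells and in the KO differences was not tested.

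The KO differences of the 2 ages, which share no array, overlapped in the members called but not in every size. Of the 18 members lower in each age, 13 were the same (72.2% of each list): Il9, Il3, Il5, Il1a, Il24, Il17b, Il12b, Il2rb, Il17re, Il1f5, Il1f6, Il12rb2 and Il27. Of the members that rose, 3 were shared, Il12a, Il21r and Il13ra2 (33.3% of the adult and 42.9% of the perinate list), and 0 moved in opposite directions. The matching shares over all tested genes were not worked out, so the overlap is not read as particular to interleukins. Il5, Il1a, Il24, Il3 and Il12b were tested only because of the WT GFP+ cells and are no support for the overlap or the correlation below. Il31ra, tested for the same reason, is none for the correlation. The correlation includes these members and was not worked out without them. Il27 and Il13ra2 were not looked at singly without perinate KO arrays 2 and 3. Over the 57 members the differences of the 2 ages correlated at Pearson's r = 0.923 and Spearman's rho = 0.845, against 0.801 and 0.515 over all tested genes (genes are not independent replicates). The difference between the ages itself was called in limma for 0 members in either direction, against 1.21% of all genes (0.722% higher and 0.484% lower), with 12 members at an unadjusted p under 0.05. Among these were Il1f5 (-1.27 in adults and -0.61 in perinates), Il33 (-1.30 and -0.57), Il1f9 (-0.35 and -1.13) and Il22ra1 (0.18 and -0.46), chosen after their values were seen (adjusted p = 0.179, 0.259, 0.25 and 0.0911). The change of sign of Il22ra1 is not shared by its other probe set. That set was lower in KO cells at both ages (means of 50.2 in WT GFP+ and 35.5 in KO in adults, and 59.8 and 31.7 in perinates). Il1f5, Il1f6 and Il1f9 were near background in both genotypes in perinates. With 32 added to each intensity 2 were called, and with weights for array quality 5. The adult rise of Il4 and the perinate rises of Il23r and Il7 are not shown to differ between ages by this test. Its lowest adjusted p among members lay close to the threshold, at 0.0574 for Il4 (-0.90 ± 0.22, perinate minus adult). Il17b (0.52 ± 0.14) and Il1rl2 (-0.55 ± 0.15) came next, at 0.0678 and 0.0767.

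**Figure D5:**
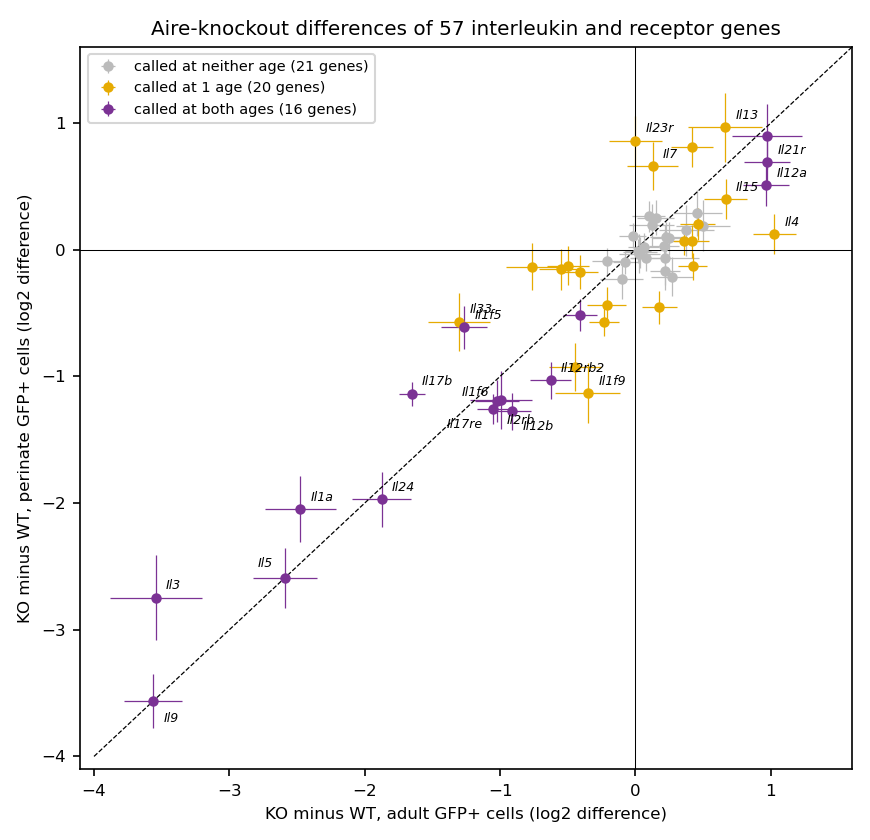
KO minus WT difference (log2) of the 57 tested members in adult GFP+ cells (x axis) against perinate GFP+ cells (y axis), with SE as bars and the dashed line marking equal differences. The 16 members called at both ages are purple, the 20 called at 1 age orange and the 21 called at neither grey, and Il9, Il5 and Il24 lie near the line.

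The remaining tested members were Il16, Il17c, Il17d, Il17ra, Il17rd and Il34. Il34, a second ligand of the CSF1 receptor, was lower in perinate KO cells (-0.57 ± 0.11, at least 1.18-fold, adjusted p = 0.00134). None of the other 5 was called between genotypes. Il17rd was above the percentile in perinate GFP- cells alone. The 19 members near background read 13.0 to 116 and included Il2, Il6, Il1b, Il17a, Il17f, Il18, Il21 and Il31. Their levels set no order among themselves, and the gamma chain Il2rg was not analysed here because it has no probe set with a single symbol.

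Genes that carry or damp interleukin signals were called in both directions, where 19.9% of all genes were called in adults and 26.5% in perinates. Of 9 tested JAK and STAT genes, 2 were lower in adult KO cells (Stat2 and Stat4), and in perinates Stat4 was lower and 2 were higher (Tyk2 and Stat5b). Stat4, which transmits IL-12 signals, read 661 to 746 in adult WT GFP+ and 195 to 267 in adult KO cells (-1.67 ± 0.19, adjusted p = 3.36e-06), and 362 to 437 and 100.3 to 148 in perinates (-1.79 ± 0.19, adjusted p = 1.98e-06), a loss at both ages as for Il12rb2. Of 8 SOCS inhibitors, Socs2 was lower at both ages (-0.84 ± 0.13, adjusted p = 0.000108, and -0.94 ± 0.13, adjusted p = 3.58e-05) and 0 were higher. Of 13 adaptors and kinases of IL-1 and IL-17 receptors, 3 were higher in adult and 2 in perinate KO cells, with Casp1, the protease that matures IL-1 beta and IL-18, among both (0.73 ± 0.12, adjusted p = 0.000274, and 0.57 ± 0.12, adjusted p = 0.00257). Of 15 partner chains and relatives not named with Il, 5 were lower in adult KO cells (10.8% of all genes were) and 4 in perinate KO cells (13%), and 0 were higher at either age. Tslp, an epithelial cytokine that signals through Il7r, read 176 to 207 in adult WT GFP+ and 28.3 to 34.8 in adult KO cells (-2.62 ± 0.15, adjusted p = 7.78e-10) and 108 to 146 and 28.9 to 39.2 in perinates (-1.98 ± 0.15, adjusted p = 3.14e-08). Its pattern over sort and genotype was that of Il9 and Il5, high in WT GFP+ cells alone.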

How the data were processed

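RNA of 17 sorted samples was hybridised to 17 Affymetrix whole-transcript arrays. The deposited table holds 24922 intensity values per array, linear and already background-corrected and normalized by the authors with RMA in Affymetrix Power Tools, per the submitters' processing notes. No source used here gives the parameters or versions of those steps. RMA pulls dim values together, and the number of arrays limits the precision.

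Probe sets with a single symbol in the platform annotation were kept, and the set with the highest mean stood for a gene. Genes above the 40th percentile of an array on at least 2 arrays were tested on log2 intensity with limma 3.58.1 in R 4.3.3, in 1 model of 6 groups (11 residual degrees of freedom, 5.52 from the prior), with Benjamini-Hochberg adjustment over 13842 genes. The steps were tested on simulated data. No pair of arrays held identical values. The members and lists were chosen with earlier results of these data known. The text names members called at a fitted difference of 2-fold or more in some comparison of groups and 10 set by name.

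The labels state no pairing, and the model of 6 groups that gave the reported values did not pair samples. Same-numbered adult WT GFP+ and GFP- samples deviated together (correlations of 0.503, 0.443 and 0.188), so pairing by number was tried as an alternative. Alternatives covered normalization, filter, pseudocount, probe set choice, array weights, replicate block and leaving out arrays. Perinate KO arrays 2 and 3 were also left out together, since an earlier look at these data had shown them apart in sex-linked transcripts. Promoters came from RefSeq (GRCm38.p6), which listed 59 of 76 members, and were searched with Python 3.11.15.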

Additional observations from a re-analysis of the deposited data

Results flagged for a closer look

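The difference between GFP+ and GFP- cells itself differed between perinates and adults for 21 members, by the interaction term of the limma fit (perinate minus adult, log2, with Benjamini-Hochberg adjusted p). Receptor chains led. Il12rb2 differed by 3.42 (adjusted p = 8.7e-08), Il23r by 2.63 (1.72e-05), Il7r by 2.52 (2.43e-07) and Il18r1 by 2.07 (2.89e-06). In each of these the perinate GFP- cells were the lowest group, while their adult counterparts were the highest group for Il12rb2 and Il7r. Il10 differed by 1.93 (0.00188) and Il17rb by 1.42 (0.00037), and in both the adult GFP- cells were the highest group. Il5ra differed by 1.58 (0.00087), Il10ra by 1.13 (0.00261), Il6ra, a chain of the IL-6 receptor, by 1.12 (0.000134) and Il17re by 0.99 (0.001).

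In the IL-1 family, Il1f6 differed by 1.26, Il1rn by 1.14, Il1f5 by 1.08, Il1rl2 by 0.61 and Il1r2 by 0.55 (adjusted p = 0.0152, 0.0138, 0.00671, 0.0129 and 0.0365). Il9 differed by 1.04, Il12a by 0.75, Il25 by 0.52 and Il4ra by 0.44 (adjusted p = 0.0303, 0.0456, 0.0356 and 0.0449). The differences of Il17rd (-0.48, adjusted p = 0.0196) and Il17b (-0.70, adjusted p = 0.00252) ran the other way. Il17rd was above the 40th percentile on perinate GFP- arrays alone and was tested only because of them, so its call is no support. Those of Il12a, Il1f6, Il1r2, Il1rn, Il25, Il4ra and Il9 were lost on leaving out single arrays. Il1f6 and Il1rn were lost without perinate GFP- array 2 (adjusted p = 0.069 and 0.0965). Il12a and Il4ra were lost without any 1 of 9 arrays (up to 0.118 and 0.248), Il1r2 and Il9 without any 1 of 6 (up to 0.145 and 0.183) and Il25 without any 1 of 5 (up to 0.135). Perinate GFP- cells were measured on 2 arrays.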

How the results depend on the processing

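Of 141 counts of called members under other settings, 136 stayed within 1.5 times the reported count. Without perinate KO arrays 2 and 3, 12 members were called between genotypes in perinates in place of 25, all 12 among the 25, and 11 between ages in KO cells in place of 21. The difference of KO effects between ages gave 2 with log2(intensity + 32) and 5 with array weights in place of 0. Without adult WT GFP+ array 7, 15 were called between ages in WT GFP+ cells in place of 23. On leaving out 1 array at a time, the count was 19 to 25 for genotype in adults, 19 to 26 in perinates and 0 to 0 for their difference. It was 33 to 37 for sort in adults, 31 to 35 in perinates and 16 to 24 for their difference, and 15 to 19 for age in WT GFP+, 29 to 33 in GFP- and 15 to 19 in KO cells. With the replicate number as a block, sort in adults gave 39 in place of 37, age in WT GFP+ cells 24 and age in KO cells 22. The last 2 comparisons share only numbers (correlations of 0.033 and 0.189, and of 0.039 to 0.059). Of the named calls the block ended, only that of Il20rb belonged to the comparison of sorts in adults. Over 187 named results, 2517 values kept their direction and side of the threshold, 210 fell short of it and 0 reversed. Centring arrays on their median moved the median of all genes to 0.12 in adult and 0.15 in perinate KO cells, and the share of calls that were higher from 45.6% to 61.2% and from 50.8% to 66.7%. The members then split 12 higher to 16 lower and 8 to 17. Quantile normalization moved that share from 38.4% to 49.4% for age in WT GFP+ cells, with members 7 to 17. Values near the 40th percentile limit folds to lower bounds.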
